A study of Rattus norvegicus with 9 samples.

Results

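Esm1, Gja1, Kdr, Flt1, Pecam1, Cdh5, Emcn, Ehd3, Plvap and Tek are 10 genes of the blood vessel lining, the endothelium, measured in rat kidney after ischaemia-reperfusion injury with and without rapamycin. They are 10 of the 11235 genes that the deposited FPKM table names, and all 10 passed the filter on low counts that left 17335 of 30454 genes for testing. Esm1 and Gja1, the gene of the gap junction protein connexin 43, were chosen by their fall in the rapamycin group, so their values in that group are given as a description with no test. The other 8 were chosen as known endothelial genes, for comparison.

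Of the 9 libraries, 3 were labelled sham, 3 I/R and 3 I/R + rapamycin. All came from kidney of wild-type Sprague-Dawley rats of 6 to 8 weeks. The I/R groups had 45 min of renal ischaemia and then reperfusion, and the sham group had the operation without it. For all 9 libraries the labels give a reperfusion time of 3 or 7 days. Whether the groups were taken at the same time is therefore not known. Rapamycin is an inhibitor of the kinase mTOR. The labels give its dose as 1 or 2 mg per kg per day over 3 or 7 days and differ on route, on the sex of the animals and on whether there were 3 or 6 groups, so dose, time and sex of a given library are not known. They do not say that each library is a separate animal, and p-values therefore measure the spread between these samples, which may be technical. The labels name the cell type as renal tubular cell, yet endothelial genes were abundant, and 11 podocyte genes summed to 732 to 1199 read counts scaled to library size (CPM) over the 9 libraries. The libraries thus held RNA of other cells than tubule cells. In such bulk samples fewer cells of a type and less RNA per cell cannot be told apart.

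Endothelial cells sense vascular endothelial growth factor (VEGF) through the receptor tyrosine kinases encoded by Kdr and Flt1, and angiopoietins through the one encoded by Tek. The kidney has several endothelial beds, among them the fenestrated capillaries of the glomerulus and the peritubular capillaries around the tubules. Esm1 encodes endocan, a secreted proteoglycan that is a known target of VEGF signalling and a marker of sprouting tip cells. Connexin 43 forms channels that join neighbouring cells and is made by endothelial, smooth muscle, mesangial and other cells, so Gja1 is not a marker of endothelium alone.

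The promoter windows of the pair chosen for their fall and of the VEGF receptor genes are shown so that the sequences can be set side by side. They are RefSeq windows on the build GRCr8, from 250 bases before to 50 bases after the start the table uses, and 7 of the 10 genes had one. Of those printed, only Esm1 has the first base of the annotated gene as that start. The Gja1 and Kdr genes begin at 36302490 and 32572031, within their windows but before the start used. The Flt1 gene begins at 12333050, so its whole window lies inside the gene and is not upstream of it. Each is printed 5′ to 3′ along the gene, with GGAAG, the core bound by ETS factors, in capitals in either orientation (CTTCC is the same word on the opposite strand). Esm1 lies at chr2:46609003-46609302 on the plus strand, Gja1 at chr20:36302314-36302613 on the plus strand, Kdr at chr14:32571813-32572112 on the plus strand and Flt1 at chr12:12333180-12333479 on the plus strand.
Esm1: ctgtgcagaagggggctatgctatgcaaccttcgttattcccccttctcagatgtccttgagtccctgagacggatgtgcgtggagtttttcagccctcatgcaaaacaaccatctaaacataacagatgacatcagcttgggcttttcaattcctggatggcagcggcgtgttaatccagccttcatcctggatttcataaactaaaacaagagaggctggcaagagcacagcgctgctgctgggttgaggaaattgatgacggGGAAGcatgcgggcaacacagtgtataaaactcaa
Gja1: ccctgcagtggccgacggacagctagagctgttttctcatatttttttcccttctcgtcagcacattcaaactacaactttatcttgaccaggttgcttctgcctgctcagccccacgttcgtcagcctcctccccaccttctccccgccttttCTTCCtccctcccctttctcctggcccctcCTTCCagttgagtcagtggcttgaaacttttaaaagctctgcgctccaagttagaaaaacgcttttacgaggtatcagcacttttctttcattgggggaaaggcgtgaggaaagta
Kdr: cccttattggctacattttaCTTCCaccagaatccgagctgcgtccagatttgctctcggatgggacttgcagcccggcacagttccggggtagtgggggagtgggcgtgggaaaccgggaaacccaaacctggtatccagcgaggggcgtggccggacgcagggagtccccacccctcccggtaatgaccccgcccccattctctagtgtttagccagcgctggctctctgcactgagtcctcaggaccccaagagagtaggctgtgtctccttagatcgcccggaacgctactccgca
Flt1: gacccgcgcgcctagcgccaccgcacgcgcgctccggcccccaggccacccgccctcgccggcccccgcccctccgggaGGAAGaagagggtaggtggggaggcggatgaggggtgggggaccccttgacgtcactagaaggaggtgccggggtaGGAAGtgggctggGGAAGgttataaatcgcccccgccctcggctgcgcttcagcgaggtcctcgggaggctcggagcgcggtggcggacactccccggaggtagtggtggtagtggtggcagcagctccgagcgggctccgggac

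The Esm1 window held 1 GGAAG, 16 bases after the start, and the Gja1 window held 2 on the opposite strand, 96 and 66 bases before it. Kdr had 1, 230 bases before the start, and Flt1 had 3, at 171, 95 and 82 bases before. The word is common: 70.06% of all 33469 promoters in the table hold it on either strand. TGANTCA, the word bound by AP-1 factors, was found in the Gja1 window, 58 bases before the start, in none of the other 6 windows, and in 7.329% of all promoters. TATAAA, in 14.22% of all, was found in Esm1, 39 bases after the start, in Flt1 and in Plvap. GGGCGG, the GC box in 33.06% of all, was found in Kdr, Flt1, Ehd3 and Plvap but in neither Esm1 nor Gja1. CACGTG, in 6.418% of all, was in none of the 7, and ACAAT, in 33.67%, was in Emcn. Both strands were searched for every word, and a match is a description of the letters, not a bound site.

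Levels of different genes can be compared only per length, as FPKM. In the sham libraries Emcn was the most abundant at 69.4 ± 14.9 FPKM (SD, n = 3), followed by Plvap at 37.6 ± 2.64, Pecam1 at 25.7 ± 0.559 and Ehd3 at 21.3 ± 2.78. Kdr at 16.4 ± 0.200 FPKM and Tek at 15.7 ± 0.954 differed by less than the spread of Tek, and so did Esm1 at 10.4 ± 0.713 and Flt1 at 10.2 ± 0.375. Cdh5 at 6.01 ± 0.236 FPKM and Gja1 at 4.19 ± 0.481 were lowest. The order differed in the rapamycin libraries, where Esm1 at 3.71 ± 0.539 FPKM lay below Cdh5 at 7.15 ± 0.972 and Flt1 at 6.81 ± 1.13, and above Gja1 at 2.32 ± 0.305. All further levels are CPM on TMM-scaled library sizes.

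The sham libraries had 123, 134 and 128 CPM of Kdr, the main signalling receptor for VEGF, those of I/R had 146, 116 and 102, and those of I/R + rapamycin had 78.8, 89.9 and 117. The rapamycin libraries lay below all sham libraries but overlapped those of I/R, and I/R 1 was the highest of all 9. The log2 fold change was -0.35 against I/R (SE 0.16, 95% interval -0.70 to 0.00, adjusted p = 0.309) and -0.43 against sham (SE 0.16, adjusted p = 0.266) in edgeR's quasi-likelihood test. Neither passed the threshold of an adjusted p of 0.05. Between I/R and sham the difference was -0.09 (interval -0.43 to 0.26, adjusted p = 0.908).

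Flt1, the receptor that also acts as a decoy for VEGF, was at 72.9, 80.5 and 81.3 CPM in sham, at 71.3, 63.2 and 63.6 in I/R and at 47.1, 51.8 and 62.1 in I/R + rapamycin. No pair of groups overlapped, and the order was sham, I/R, I/R + rapamycin. Against sham the rapamycin libraries gave a log2 fold change of -0.54 (SE 0.11, interval -0.78 to -0.30), a 1.46-fold lower level, with an adjusted p of 0.0938 in edgeR. DESeq2 gave an adjusted p of 0.0019 for the same difference, and edgeR gave 0.0453 with rapamycin library 3 left out, so the call depends on both. Over all alternatives the adjusted p ran from 0.0019 to 0.306 and the log2 fold change from -0.66 to -0.46. The difference was -0.30 against I/R (SE 0.11, adjusted p = 0.231), and -0.24 between I/R and sham (SE 0.11, adjusted p = 0.522).

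Tek, the angiopoietin receptor, was the steadiest of the receptors. Its CPM values were 84.8, 81.2 and 79.6 in sham, 83.4, 88.0 and 88.9 in I/R, and 84.2, 77.5 and 75.3 in I/R + rapamycin, with overlap between all groups. The log2 fold change in I/R + rapamycin against I/R was -0.14 (interval -0.30 to 0.03, adjusted p = 0.404), and against sham -0.05 (interval -0.22 to 0.12, adjusted p = 0.81).

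Among the receptors, Kdr and Flt1 also moved together from library to library. Their deviations from the group means had a correlation of 0.905 over the 9 libraries, and those of Tek ran the other way, at -0.918 with Flt1 and -0.847 with Kdr. Gja1 ran with Kdr (0.779) and Flt1 (0.739) and against Tek (-0.899). Esm1 did not share this pattern as closely with Tek (-0.307). These are descriptions of 9 points with 3 group means removed, and the genes share libraries and depth.

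Kdr and Flt1 also have the longest transcripts of the 10. The ratio of counts to FPKM implied 7908 bases for Kdr and 7716 for Flt1, longer than 93.2% and 92.6% of the genes in the FPKM table, whose median is 3202 bases. With the trend of fold change on length removed, the differences between I/R + rapamycin and I/R were -0.19 for Kdr and -0.15 for Flt1, in place of -0.35 and -0.30. Esm1, at 2346 bases, went from -1.05 to -1.15, and Gja1, at 5752 bases, from -1.08 to -0.98. All 4 kept their sign. Tek went from -0.14 to -0.05 and Emcn, the shortest at 1645 bases, from 0.15 to -0.01.

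**Figure D1:**
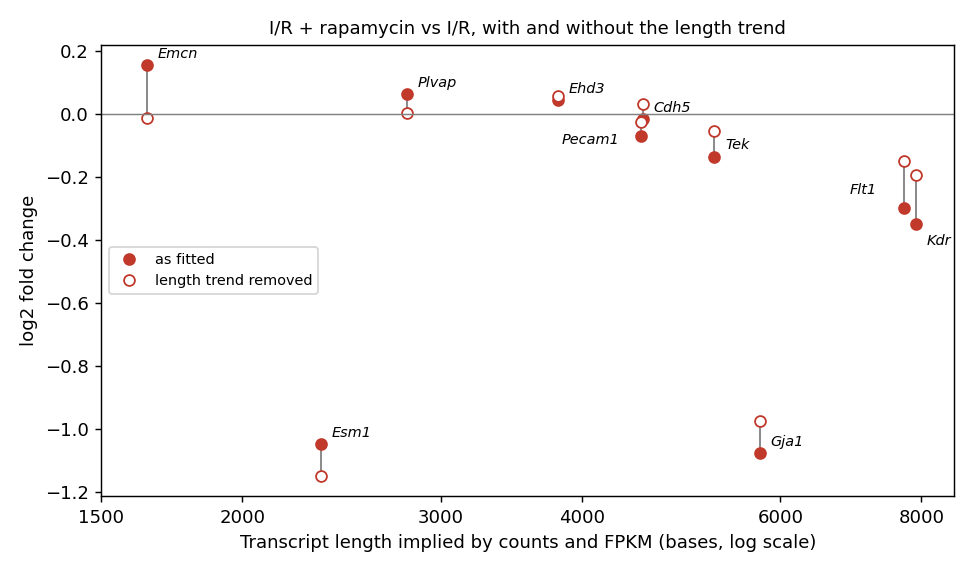
Log2 fold change of the 10 genes in I/R + rapamycin against I/R (vertical axis) by implied transcript length in bases (log axis), as fitted (filled) and with the length trend removed (open). Kdr and Flt1, at the right, move from -0.35 and -0.30 to -0.19 and -0.15, while Esm1 and Gja1 stay near -1.

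Esm1, the endocan gene, was at 22.9, 27.0 and 23.1 CPM in sham, at 21.0, 18.5 and 15.7 in I/R and at 9.26, 7.67 and 9.82 in I/R + rapamycin. No pair of groups overlapped, and each rapamycin library was below every other library. The lowest read counts behind these values were 401, 403 and 513 in the rapamycin libraries. The fitted difference was -1.05 on the log2 scale against I/R (SE 0.14), a 2.07-fold lower level, and -1.45 against sham (SE 0.14), 2.73-fold lower. I/R against sham, whose libraries also enter the comparisons that chose the gene, gave -0.40 (SE 0.14, interval -0.71 to -0.09, unadjusted p = 0.0167, adjusted p = 0.419 in edgeR). That difference did not pass the adjusted test, although the groups did not overlap.

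Cdh5, which encodes the adherens junction protein VE-cadherin, went the other way after injury. It was at 27.1, 26.7 and 27.2 CPM in sham, at 38.0, 31.7 and 30.9 in I/R and at 36.4, 28.5 and 34.6 in I/R + rapamycin. Both injured groups lay above all sham libraries and overlapped each other. The log2 fold changes against sham were 0.31 for I/R (SE 0.12, adjusted p = 0.441) and 0.29 for I/R + rapamycin (SE 0.12, adjusted p = 0.305), short of the threshold. Between the injured groups the difference was -0.02 (interval -0.27 to 0.24, adjusted p = 0.963).

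Pecam1, which encodes the adhesion molecule CD31, overlapped between all groups. Its values were 114, 118 and 113 CPM in sham, 115, 111 and 114 in I/R, and 114, 99.5 and 111 in I/R + rapamycin. The difference between I/R + rapamycin and I/R was -0.07 on the log2 scale, and its 95% interval ran from -0.24 to 0.10 (adjusted p = 0.694). A fall of the size fitted for Esm1 or Gja1 lies outside that interval, but those genes were chosen by their fall here, so the contrast is a description.

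Gja1 was at 21.4, 23.2 and 27.1 CPM in sham, at 33.6, 28.4 and 24.3 in I/R and at 11.8, 14.4 and 14.7 in I/R + rapamycin. Sham and I/R overlapped, and all rapamycin libraries were below both. The read counts in the rapamycin libraries were 509, 759 and 768. The fitted difference was -1.08 against I/R (SE 0.15), a 2.11-fold lower level, and -0.81 against sham (SE 0.15), 1.75-fold lower. I/R against sham gave 0.27 (SE 0.15, interval -0.06 to 0.59, adjusted p = 0.616), which did not pass. Esm1 was thus lower and Gja1 higher in I/R than in sham by point estimate, with neither difference past the test, and both were lowest with rapamycin.

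**Figure D2:**
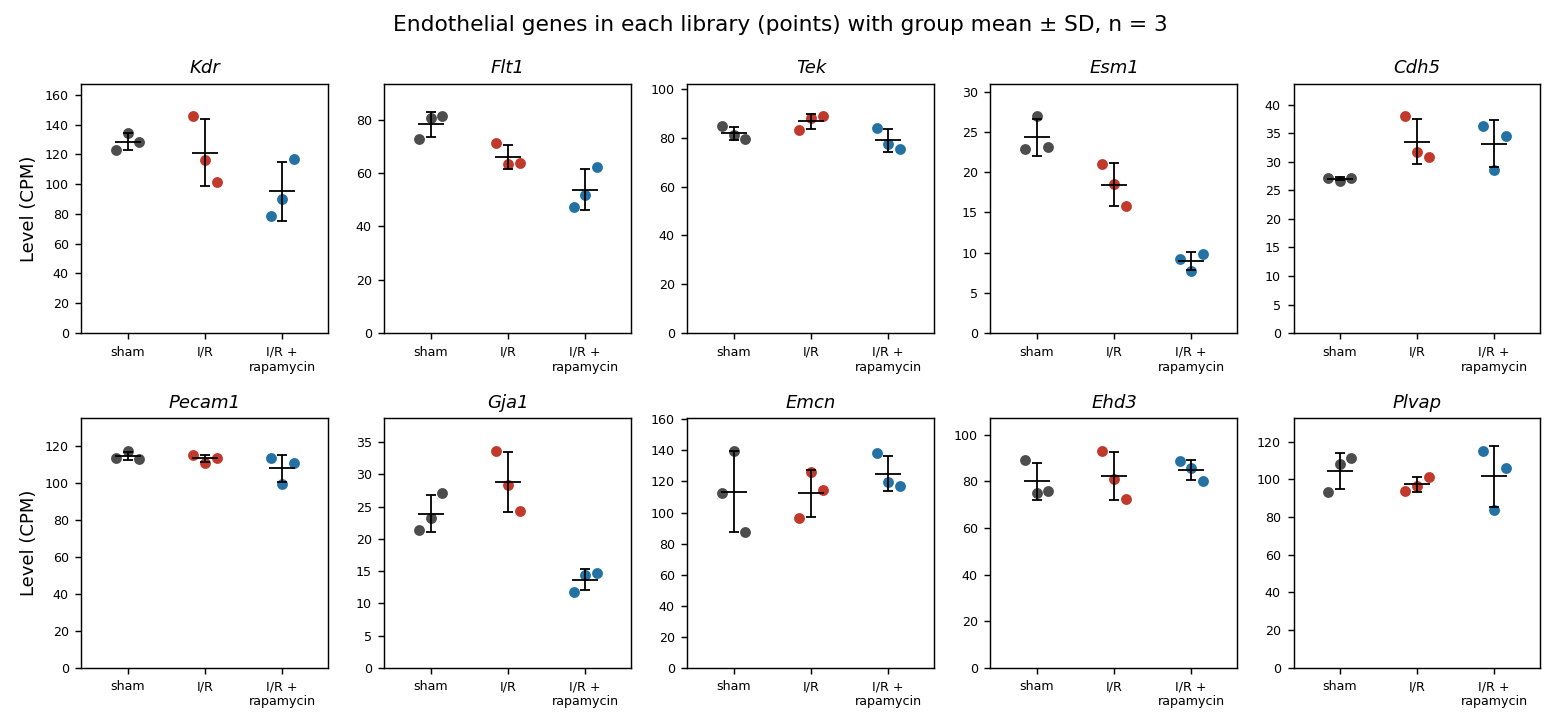
CPM of each of the 10 genes (vertical axes from 0) in all 9 libraries by group, with each point 1 library and the bars the mean ± SD (n = 3). The rapamycin libraries of Esm1 (7.67 to 9.82) and Gja1 (11.8 to 14.7) lie below all others, while Tek, Pecam1, Emcn, Ehd3 and Plvap overlap between all groups.

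Emcn encodes endomucin, a sialomucin of capillary and venous endothelium. It was at 113, 140 and 87.6 CPM in sham, at 96.5, 126 and 114 in I/R and at 138, 120 and 117 in I/R + rapamycin. The groups overlapped, and the sham libraries held both the lowest and the highest value of all 9. The rapamycin difference from I/R was 0.15 on the log2 scale (interval -0.20 to 0.51, adjusted p = 0.674).

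Ehd3, an endocytic trafficking gene enriched in glomerular endothelium, was at 89.3, 75.1 and 75.9 CPM in sham, 93.1, 81.2 and 72.5 in I/R and 88.6, 85.8 and 80.3 in I/R + rapamycin. Its difference between the injured groups was 0.05 (interval -0.19 to 0.28, adjusted p = 0.875). Plvap, which encodes the protein of the diaphragms of fenestrated endothelium, was at 93.5, 108 and 112 CPM in sham, 94.1, 96.4 and 101 in I/R and 115, 83.5 and 106 in I/R + rapamycin. Its difference was 0.06 (interval -0.20 to 0.33, adjusted p = 0.843). For both genes the groups overlapped.

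In I/R against sham 0 of the 10 genes had an adjusted p under 0.05 in edgeR, where 0.0577% of all tested genes did, and DESeq2 called 0 of 10, against 1.49%. Of the 8 genes not chosen by the fall, 2 had an unadjusted p under 0.05, Flt1 and Cdh5, against 9.42% of all genes. Flt1 alone of the 8 was lower without overlap, against 7.19% of all genes, and Cdh5 alone was higher without overlap, against 7.43%.

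Between I/R + rapamycin and I/R 0 of the 8 passed the adjusted threshold in edgeR, against 0.127% of all genes. The chosen pair is left out of these counts, since this comparison chose it. At an unadjusted p under 0.05 there was 1 of the 8, Flt1, against 16.3% of all genes, and DESeq2 called 0 of the 8, against 4.43%. Of the 8, Flt1 alone was lower without overlap, against 12.8% of all genes, and none was higher without overlap, against 11.8%. The median log2 fold change of the 8 was -0.04, beside 0.01 for all tested genes.

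In I/R + rapamycin against sham 0 of the 8 passed in edgeR, against 0.156% of all genes. At an unadjusted p under 0.05 there were 3 of the 8, Kdr, Flt1 and Cdh5, against 13.8% of all genes, and DESeq2 called 1, Flt1, against 3.14%. Kdr and Flt1 were lower without overlap, against 9.65% of all genes, and Cdh5 was higher without overlap, against 9.69%. The median of the 8 was -0.05, beside 0.00 for all genes. Both comparisons with rapamycin share the rapamycin libraries, so their values for a gene are not independent.

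**Figure D3:**
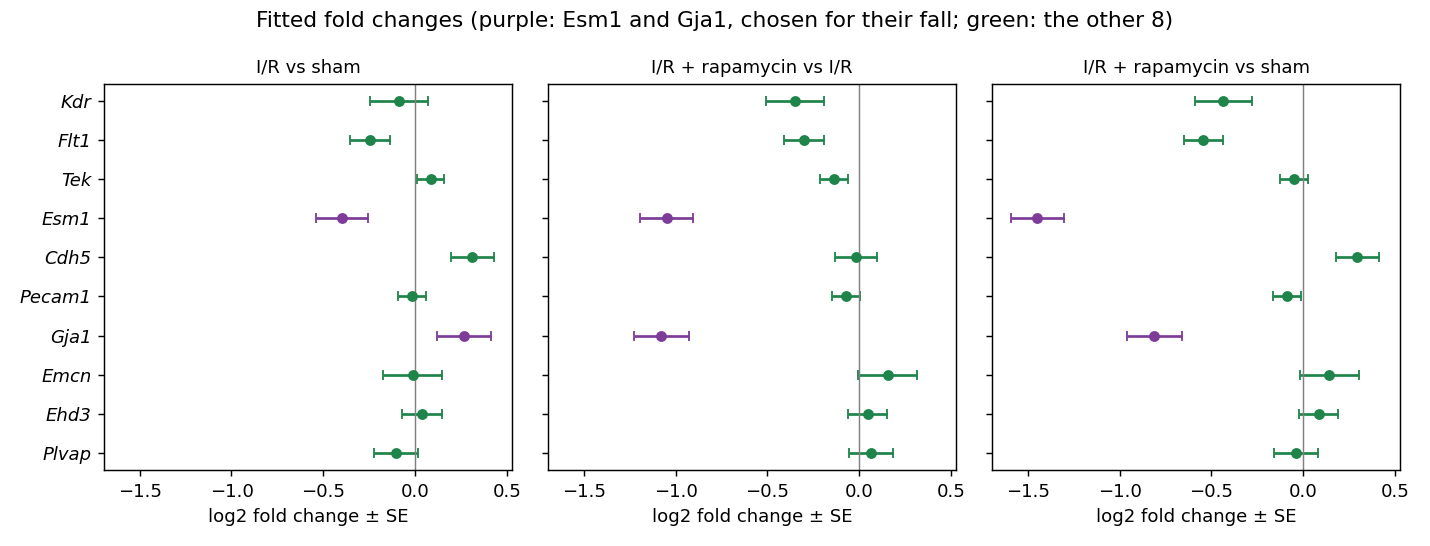
Fitted log2 fold change ± SE of the 10 genes in the 3 comparisons (horizontal axes), with Esm1 and Gja1 in purple and the other 8 in green. The chosen pair lies near -1 in I/R + rapamycin against I/R, while the other 8 lie between -0.35 and 0.15.

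Over all alternatives, each library left out in turn included, the log2 difference between I/R + rapamycin and I/R ran from -1.15 to -0.94 for Esm1 and from -1.19 to -0.88 for Gja1.

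Within each library the level of Esm1 and Gja1 was also taken relative to the 8 other genes, as the log2 CPM of the gene minus the mean log2 CPM of the 8. The geometric mean of the 8 was 82.9, 86.5 and 81.3 CPM in sham, 86.8, 83.0 and 80.2 in I/R and 80.8, 73.8 and 82.3 in I/R + rapamycin. The mean log2 level of the 8 in I/R + rapamycin was 0.08 below that in I/R and 0.08 below that in sham, and the groups overlapped. Relative to it, Esm1 was at -1.78 ± 0.09 in sham, -2.19 ± 0.15 in I/R and -3.15 ± 0.10 in I/R + rapamycin (SD, n = 3), with no overlap between groups. Gja1 was at -1.81 ± 0.20 in sham, -1.55 ± 0.18 in I/R and -2.54 ± 0.22 in I/R + rapamycin, where the last lay below both others.

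The relative level of Esm1 was thus lower by 0.97 in I/R + rapamycin than in I/R and by 1.37 than in sham, and that of Gja1 by 0.99 and 0.73. These differences are close to those of the unadjusted levels. They are a description, since the pair was chosen on the same libraries.

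**Figure D4:**
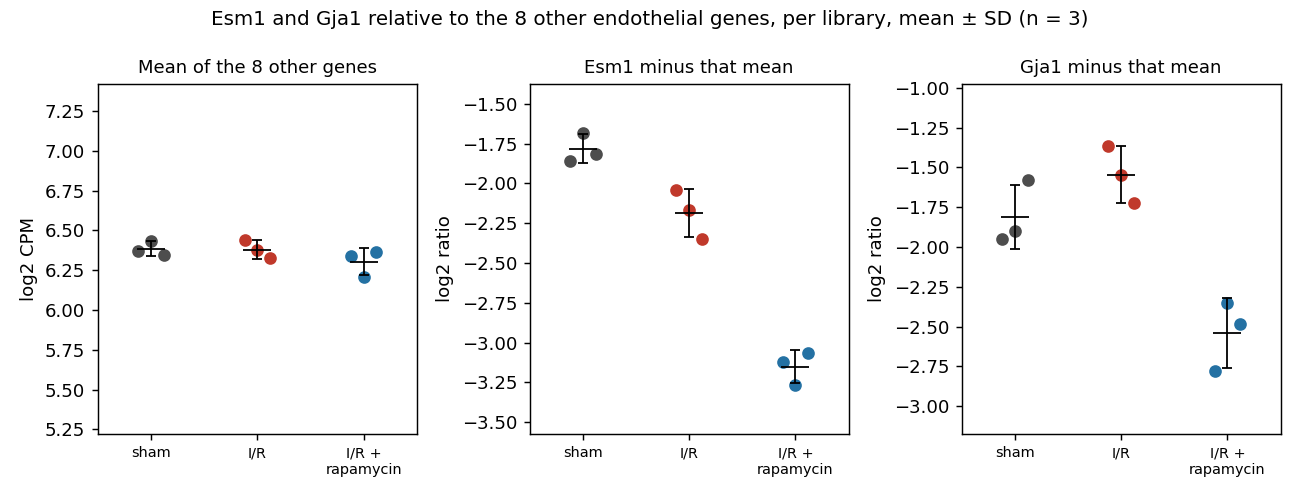
Mean log2 CPM of the 8 other endothelial genes per library (left) and the log2 level of Esm1 (middle) and Gja1 (right) relative to that mean, with points for libraries, bars for mean ± SD (n = 3) and the same span on each vertical axis. The mean of the 8 stays between 6.21 and 6.44, while Esm1 relative to it goes from -1.78 in sham to -3.15 in I/R + rapamycin.

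The genes around these 10 were taken from lists of the pathway and cell type, and no gene in any list was called by edgeR in any comparison. Of the lists, 9 are on the endothelium and its signalling. They include the VEGF and angiopoietin ligands, so their genes are not all markers of endothelium. Of the 83 genes in these 9 lists other than the 10, 51 had a log2 fold change below 0 in I/R + rapamycin against I/R. That is 61.4%, beside 49.2% of all tested genes. Their median was -0.08, beside 0.01. All list values are as fitted, with the length trend left in, and its part in them was not tested. Adjusted p-values of single list genes are from edgeR. At an unadjusted p under 0.05 there were 16 of 83, or 19.3%, beside 16.3% of all genes. Without overlap 14 were lower, or 16.9% beside 12.8%, and 6 were higher, or 7.23% beside 11.8%. DESeq2 called 4, or 4.82% beside 4.43%. In I/R against sham 39 of the 83 were below 0, with a median of 0.02. There 11 had an unadjusted p under 0.05, or 13.3% beside 9.42%. Without overlap 9 were higher, or 10.8% beside 7.43%, and 3 lower, or 3.61% beside 7.19%. In I/R + rapamycin against sham 54 were below 0, or 65.1% beside 49.8%, with a median of -0.07. At an unadjusted p under 0.05 there were 22, or 26.5% beside 13.8%. Without overlap 14 were lower, or 16.9% beside 9.65%, and 8 higher, or 9.64% beside 9.69%. DESeq2 called 7, or 8.43% beside 3.14%.

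The ligands of these receptors did not move as a group: 2 of 6 measured were below 0 in I/R + rapamycin against I/R, with a median of 0.01. Vegfa, the principal ligand of Kdr, was at 330, 349 and 308 CPM in sham, 316, 294 and 248 in I/R and 260, 285 and 317 in I/R + rapamycin, with a difference of 0.00 between the injured groups (SE 0.12, adjusted p = 0.99). Vegfb, a ligand of Flt1 but not of Kdr, was at 28.2, 31.0 and 25.9 CPM in sham, 30.0, 31.6 and 28.0 in I/R and 43.6, 40.9 and 37.4 in I/R + rapamycin. All rapamycin libraries lay above all others, by 0.44 on the log2 scale against I/R (SE 0.10, adjusted p = 0.117), short of the threshold in edgeR. DESeq2 called 1 of the 6 measured ligands in that comparison, beside 4.43% of all genes. In I/R + rapamycin against sham it called 1 of 6, beside 3.14%. Angpt2, the context-dependent ligand of Tek, ranged from 11.5 to 81.5 CPM within I/R alone, and its difference of 0.58 had an SE of 0.95.

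Of 8 other endothelial receptors, 7 were below 0 in I/R + rapamycin against I/R, with a median of -0.18. Nrp1, a VEGF co-receptor, was at 112, 93.2 and 94.3 CPM in I/R and 54.6, 73.4 and 81.6 in I/R + rapamycin, a difference of -0.52 (SE 0.15, adjusted p = 0.169). Ednrb, the endothelin B receptor gene, went from 34.7, 37.6 and 37.6 CPM to 29.2, 28.0 and 25.5, a difference of -0.41 (SE 0.11, adjusted p = 0.134). Neither gene overlapped between those groups, and neither passed in edgeR. DESeq2 called 2 of the 8 receptors in this comparison, beside 4.43% of all genes, so the calls depend on the method. Tie1, the orphan partner of the Tek receptor, was at 67.0, 61.5 and 42.99 CPM in sham and above these in both injured groups, at 78.6 to 80.5 in I/R, by 0.48 (SE 0.14, adjusted p = 0.303).

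Sprouting and tip cell genes, the group to which Esm1 is assigned in angiogenesis, had 7 of 12 below 0 between I/R + rapamycin and I/R, with a median of -0.06. Lama4, a basement membrane laminin chain, was at 21.4, 18.3 and 19.1 CPM in I/R and 14.4, 15.7 and 16.8 in I/R + rapamycin, a difference of -0.33 (SE 0.11, adjusted p = 0.191), while Rgcc was higher by 0.46 (SE 0.16, adjusted p = 0.202). Against sham, I/R had more Nid1, the basement membrane gene nidogen 1, by 0.68 (SE 0.14, adjusted p = 0.203), and less Cxcr4, a chemokine receptor, by point estimates of -1.004 (SE 0.25, adjusted p = 0.266). Of 8 Notch pathway genes, 5 were below 0 with rapamycin, with a median of -0.20 and values of -0.42 for Notch2 and -0.32 for Notch4, both lower without overlap and neither past the test.

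Of 10 endothelial transcription factor genes, 7 were below 0 against I/R (median -0.19) and 10 against sham (median -0.25), and none passed. Mecom was at 110, 92.1 and 97.6 CPM in I/R and 76.5, 79.4 and 89.0 in I/R + rapamycin, and the ETS family genes Fli1 and Ets1 had differences of -0.42 (SE 0.16, adjusted p = 0.246) and -0.28 (SE 0.12, adjusted p = 0.29). Surface and junction genes divided evenly: 13 of 26 were below 0, with a median of 0.00. Clec14a, an endothelial lectin-like receptor gene, was lower without overlap by a log2 difference of -0.30 (SE 0.10, adjusted p = 0.185), Adgrf5 by -0.41 (SE 0.12, adjusted p = 0.159), and Egfl7 was higher by 0.29 (SE 0.11, adjusted p = 0.259). Arterial and venous genes had 5 of 8 below 0 and lymphatic genes 1 of 3. Glomerular endothelial genes had 4 of 4 measured below 0, of 8 listed (median -0.15). Of these, 0 had an unadjusted p under 0.05 in edgeR, and all overlapped between the injured groups. The largest of these differences, -0.51 for Lpl (SE 0.37), came with 137.5, 219.2 and 400.1 CPM in I/R. Ehd3, of the 10 genes, was at 0.05.

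**Figure D5:**
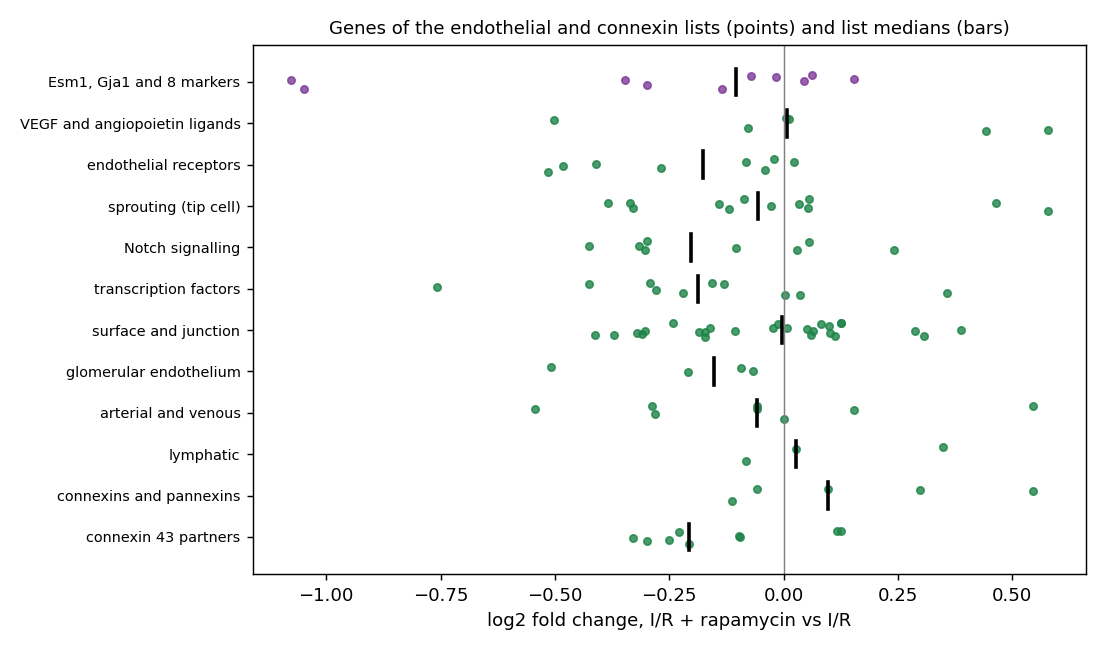
Log2 fold changes between I/R + rapamycin and I/R (horizontal axis) for the 10 genes and of the measured genes of each endothelial and connexin list (points), with list medians as bars. Esm1 and Gja1 lie further below 0 than any other point, but they were chosen by this fall, so their place is no test. The list genes are only those that reach 1 FPKM in 8 or more libraries, which leaves out genes of low level. The medians of the lists below the pair run from -0.21 to 0.10.

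Around connexin 43, 5 other connexin and pannexin genes were measured, and 2 of 5 were below 0 in I/R + rapamycin against I/R. Gja5, the arterial endothelial connexin 40 gene, was at 20.1, 15.5 and 11.3 CPM in I/R and 11.9, 16.3 and 16.8 in I/R + rapamycin, with overlap and a difference of -0.06 (SE 0.20, adjusted p = 0.919). Gja4, the connexin 37 gene, was higher without overlap in the rapamycin libraries, by 0.54 (SE 0.28, adjusted p = 0.36), from levels of 3.64 to 5.91 CPM. Gjb1, the connexin 32 gene of epithelia, differed by 0.30 (SE 0.12, adjusted p = 0.266). Gjb2, the connexin 26 gene, differed between I/R and sham by -1.31 (SE 0.36, adjusted p = 0.328), with 374, 415 and 154 CPM in sham and 172, 98.4 and 111 in I/R.

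Of 9 genes for proteins that bind connexin 43 or govern its turnover, 7 were below 0 against I/R (median -0.21). Against sham 9 were below 0 (median -0.13), and none passed the adjusted test in edgeR in either comparison. DESeq2 called 1 of the 9 against I/R and 2 against sham, beside 4.43% and 3.14% of all genes. Tjp1, which encodes the scaffold ZO-1, was at 111, 93.5 and 88.1 CPM in I/R and 68.5, 76.7 and 87.4 in I/R + rapamycin. The log2 differences were -0.33 (SE 0.11, adjusted p = 0.212) for Tjp1 and -0.21 (SE 0.09, adjusted p = 0.299) for the ubiquitin ligase gene Nedd4. Both were lower without overlap and smaller in size than the difference of Gja1, which was chosen by its fall.

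The genes most like Esm1 over the 9 libraries, by correlation of log2 CPM among 10381 genes, were Sptlc2 (0.961), Fbxo32 (0.952), Dcps (0.944), Zfp800 (0.944) and Clec14a (0.940). Clec14a is itself an endothelial gene, and Sptlc2 encodes a subunit of the enzyme that begins sphingolipid synthesis. Those most like Gja1 were Myo6 (0.974), Smarca2 (0.970), Smg6 (0.956), Plcb1 (0.952) and Crispld2 (0.95). The log2 difference between the injured groups was -1.12 for Crispld2 and -0.23 for Smarca2. With the group means taken out, the lists changed: Mettl15 (0.951) and Ada (0.942) led for Esm1, and Agtrap (0.981) and Klf3 (0.975) were among those of Gja1. No gene stood in both lists of a member. With 9 points and so many genes, high values arise readily, and the genes share libraries and depth.

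Markers of other cells moved with some of these comparisons, and their part in the results was not tested. The 3 measured red cell genes of 6 listed summed to 1242 to 3332 CPM in I/R, to 84.8 to 524 in I/R + rapamycin and to 245 to 2552 in sham. The 13 measured immediate early and stress genes of 17 summed to 794 to 2601 CPM in I/R, 794 to 847 in I/R + rapamycin and 1100 to 4337 in sham. Mural and mesangial genes are of cells that also make connexin 43. Over 11 of 13 listed they summed to 457 to 503 CPM in I/R and 385 to 491 in I/R + rapamycin, which overlap. Of the 11, 8 were below 0 in I/R + rapamycin against I/R (median -0.15, beside 0.01 for all genes). Podocyte genes, a source of VEGF in the glomerulus, were below 0 for 11 of 11 measured, of 14 listed, in I/R against sham (median -0.28, beside 0.00 for all genes), with sums of 1072 to 1199 CPM in sham, 798 to 1076 in I/R and 732 to 1018 in I/R + rapamycin. Collecting duct genes were below 0 for 10 of 10 measured in I/R against sham (median -0.35), with sums of 1159 to 1181 CPM in sham and 922 to 1042 in I/R, which do not overlap. Proximal tubule genes were below 0 for 8 of 10 in I/R + rapamycin against I/R (median -0.18, beside 0.01 for all genes), with sums of 13446 to 16835 CPM in I/R and 11865 to 14287 in I/R + rapamycin, which overlap. No measured marker of these lists was at 0 in any library. Total counts per library ran from 44582251 to 60538627. These totals do not set the counting error of a single gene, which was not computed.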

How the data were processed

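Poly(A) RNA of kidney was sequenced with paired-end reads in 9 libraries of batch 1, per the labels. The submitters' processing notes list HISAT2, StringTie, cutadapt and DESeq2, with Rnor_6.0 as the build. How strand was set and which annotation and counting rule were used is not given in the sources used here, so reads of antisense or overlapping genes are not separable. The authors deposited raw read counts for 30454 gene IDs and, per the file headers, FPKM values with symbols for 11235 genes, all of which reach 1 FPKM in 8 or more libraries.

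Counts were fitted in R 4.3.3 with edgeR 4.0.16 (TMM factors, default filter on low counts, quasi-likelihood, robust) over all 9 libraries, with Benjamini-Hochberg adjustment over 17335 genes and a threshold of 0.05. The script was tested on simulated data. Replicates of a group differed by more than sampling noise, so none was counted as a copy. Standard errors come from dividing a log2 fold change by the root of its F statistic. Transcript length was implied by counts and FPKM. Relative levels, correlations and list counts are descriptions without a test. Promoters come from RefSeq, and coordinates in the deposited files were not used.

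The members and lists were chosen with earlier results of these data known. The genes named are the 10, per list up to 4 with the smallest p between I/R + rapamycin and I/R, up to 2 between I/R and sham, and per chosen gene and measure up to 5 most correlated genes with a mean of at least 5 CPM. Of 238 genes in 20 lists, 175 have a symbol in the table. The alternatives were DESeq2 1.42.0, its size factors in edgeR, no filter or a mean of 1 CPM, the replicate block, the length trend removed, the 6 libraries compared, limma 3.58.1 on log2(FPKM + 1) and log2(FPKM + 0.1), and libraries left out. A few genes covered by the naming rule are not reported here.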

Additional observations from a re-analysis of the deposited data

How the results depend on the processing

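With 3 libraries a group, the spread between libraries limits what can be called, and the count of called genes was the least stable value. In I/R + rapamycin against I/R, 2 of the 10 genes were past the threshold, Esm1 and Gja1, which this comparison chose, so the count is a description and no test. It was 0 with the replicate number as a block, 0 in a fit of the 6 libraries compared alone, and 0 to 2 with each library left out, and it stayed at 2 without I/R 1 or sham 3 or both. In I/R + rapamycin against sham, the count was 1, Esm1, likewise chosen by its fall, 2 with the length trend removed, 3 in DESeq2, and 1 to 2 with each library left out. In I/R against sham, 0 passed under every alternative. Same-numbered libraries did not deviate together (correlations of -0.191 to 0.127). With 3 libraries a group this cannot exclude a pairing, so the fit with the replicate number as a block is kept as one more alternative. Of the 570 values of single genes under 19 alternatives, 520 kept their direction and their side of the threshold, 17 lost a pass, 5 gained one and 28 changed sign. Leaving out a library of the group not compared hardly moves a fold change. Kdr in I/R against sham, for example, stayed at -0.087 without any single rapamycin library. The 520 is therefore no measure of robustness. In the main fit only the chosen pair had a pass to lose, in its comparisons with rapamycin, so the 17 are no test. The log2 differences of Esm1 and Gja1 with rapamycin kept their sign throughout, also relative to the 8 other genes (-0.93 and -0.96 without the most abundant of the 8). The changes of sign were all of small values that passed no test, and the cause was not tested. In I/R against sham, Pecam1 went from -0.018 to 0.004 in both FPKM fits, Emcn from -0.014 to 0.002 with the replicate block, 0.074 with the length trend removed and 0.025 in both FPKM fits, and Ehd3 from 0.038 to -0.100 without I/R 1 and sham 3. With each library left out, Kdr ran from -0.243 to 0.025, Emcn from -0.169 to 0.163 and Ehd3 from -0.062 to 0.124. In I/R + rapamycin against I/R, Cdh5 went from -0.017 to 0.083 without I/R 1 and sham 3 and to 0.031 without the length trend, Emcn to -0.013 with the length trend removed, and Ehd3 to -0.015 and Plvap to -0.017 in both FPKM fits. With each library left out, Cdh5 ran from -0.088 to 0.083, Ehd3 from -0.040 to 0.143 and Plvap from -0.038 to 0.184. In I/R + rapamycin against sham, Emcn went to -0.017 and Plvap to 0.006 without I/R 1 and sham 3. With each library left out they ran from -0.017 to 0.318 and from -0.141 to 0.081.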
